A study of Mus musculus with 39 samples.

Results

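The genes described here encode the folding and quality control machinery of the endoplasmic reticulum (ER), followed across 39 RNA sequencing libraries of mouse left ventricle. They were chosen by symbol, and all 34 were found among the 38293 gene rows of the table. They comprise 7 lumenal chaperones and co-chaperones, 2 lectin chaperones, 5 enzymes of disulfide bonds, the secreted protein Manf, 4 sensors and transcription factors, 9 genes of ER-associated degradation (ERAD), 4 genes of the translocon and 2 KDEL receptors. All mice were C57BL6/J. Unoperated hearts were homozygous for the R14del deletion in Pln, the gene for phospholamban, an ER membrane protein that restrains the cardiac calcium pump (Pln R14del/R14del), or wild type, at 3 and 5 weeks (n = 4 libraries for each genotype and age). At 8 weeks homozygous (n = 4), heterozygous (Pln wt/R14del, n = 4) and wild type hearts (n = 3) were sampled. The sex of these mice is not given in the sources used here. Wild type males were also operated at 12 weeks. Their hearts were taken 3 days after temporary closure of a coronary artery (ischemia-reperfusion, n = 4), or 8 weeks after permanent closure (infarction, n = 4), or after sham surgery. The 4 shams, 2 taken at each of the same 2 times, were pooled as 1 control group. Tissue of the operated hearts came from the left ventricle remote from the infarct.

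The ER folds secreted and membrane proteins with the help of chaperones, which hold nascent chains, and of oxidoreductases, which form and reshuffle disulfide bonds. Chains that fail to fold are drawn back to the cytosol, ubiquitinated and degraded, which is ERAD. When unfolded chains accumulate, the membrane sensors ATF6, IRE1 (Ern1) and PERK (Eif2ak3) start the unfolded protein response, in which cleaved ATF6 and spliced XBP1 raise transcription of chaperone and ERAD genes through short promoter elements. In heart muscle the same membrane system stores calcium, and several of these chaperones bind it.

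The best known of these elements, the ER stress response element (ERSE), reads CCAAT, then 9 bases of any kind, then CCACG. RefSeq promoter windows (GRCm38.p6, 250 bases before to 50 after a start site) were at hand for 27 of the 34 genes, in 28 windows. The ERSE was found on either strand in the windows of 9 genes, Calr, Canx, Creld2, Derl3, Dnajc3, Hsp90b1, Hspa5, Pdia6 and Syvn1, against 39 of all 32851 windows (0.119%). The shorter ERSE-II, which reads ATTGG, 1 base, then CCACG, was found for Dnajb11 and Herpud1 (0.0365% of all windows), and the core of the unfolded protein response element (UPRE), CCACGTCA or its reverse complement, for Kdelr3 and Ube2j1 (0.676%). The amino acid response element bound by ATF4, read as TGATG, any base, then AA, was found for Herpud1 alone (3.97% of all windows). The first 3 motifs share the letters CCACG; each was searched for on its own on both strands, and a match in the letters is not a bound site. Below are 7 examples that recur in the results, on the gene's strand from 5′ to 3′, with the motif in capitals. They are Hspa5, the element's standard example; Derl3 and Creld2, with large differences in mutant hearts; Calr and Canx, related lectin chaperones; Herpud1, which was not called against wild type at either age; and Ube2j1, which was further from wild type at 8 than at 5 weeks. In Derl3, Creld2 and Calr the ERSE lies on the opposite strand and appears as its reverse complement.
Hspa5 (ERSE, chr2:34772005-34772063, plus strand): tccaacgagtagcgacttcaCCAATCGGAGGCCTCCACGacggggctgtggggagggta
Derl3 (ERSE, chr10:75893222-75893280, plus strand): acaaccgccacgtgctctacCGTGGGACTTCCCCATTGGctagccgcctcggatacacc
Creld2 (ERSE, chr15:88819500-88819558, plus strand): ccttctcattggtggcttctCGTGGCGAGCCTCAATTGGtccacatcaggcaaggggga
Calr (ERSE, chr8:84847055-84847113, minus strand): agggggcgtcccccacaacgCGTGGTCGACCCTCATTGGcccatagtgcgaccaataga
Canx (ERSE, chr11:50325780-50325838, minus strand): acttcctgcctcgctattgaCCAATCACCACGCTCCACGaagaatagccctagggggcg
Herpud1 (ERSE-II, chr8:94386357-94386407, plus strand): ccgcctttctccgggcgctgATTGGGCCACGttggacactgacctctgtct
Ube2j1 (UPRE core, chr4:33031292-33031339, plus strand): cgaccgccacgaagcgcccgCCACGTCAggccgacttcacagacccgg

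Depth was 9.4 M to 19.3 M counts per library, and values are given as CPM, a gene's counts per M counts of its library. The labels give each library its own ID but do not say that each is a separate animal, so the p-values reflect only how far these samples differ, which may be technical. Fold changes and tests come from edgeR's quasi-likelihood test with TMM scaling, errors of log2 fold changes are SE, and adjusted p is Benjamini-Hochberg over all genes tested. A gene is called when adjusted p is under 0.05. Cardiomyocyte genes were abundant in every library (8 markers summed to 29306 CPM in the lowest), as the label of heart muscle requires. A pair of the libraries that stood apart in these 34 genes is followed below. Replicate 1 of the homozygous hearts at 8 weeks gave 0.415% of its counts to them, against 0.698% to 0.898% in the other 3 libraries of its group, and 15.5% of its counts to mitochondrial genes, against 8.27% to 10.6%. Its fibroblast markers summed to 4829 CPM, below the 7248 to 8966 CPM of the other 3 and above the 1149 to 1248 CPM in wild type ventricles of that age. Among the shams, replicate 2 at 12 weeks gave 0.404% of counts to the 34 genes, against 0.283% to 0.308% in the other 3. It is called the high sham below. In comparisons of 2 groups that include either library, counts over the 34 genes and most of their fold changes are followed by those without it. Interaction counts with the 8 week hearts are followed by those without homozygous replicate 1 only. Counts by role, by promoter element and in the other gene and marker lists use all libraries. Both libraries were singled out by their level in these same 34 genes. Leaving out either one therefore tends to raise fold changes and lower p-values, and values without them are description, not an independent test. The kit is stranded, but the strand setting of the counting is not given in the sources used here. Syvn1, Kdelr3, Manf, Pdia6, Derl2, Pdia3 and Hsp90b1 share exon bases with a gene of the table other than a microRNA on the opposite strand, and Manf and Hsp90b1 also on the same strand, so their counts are uncertain to that extent.

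**Figure D1:**
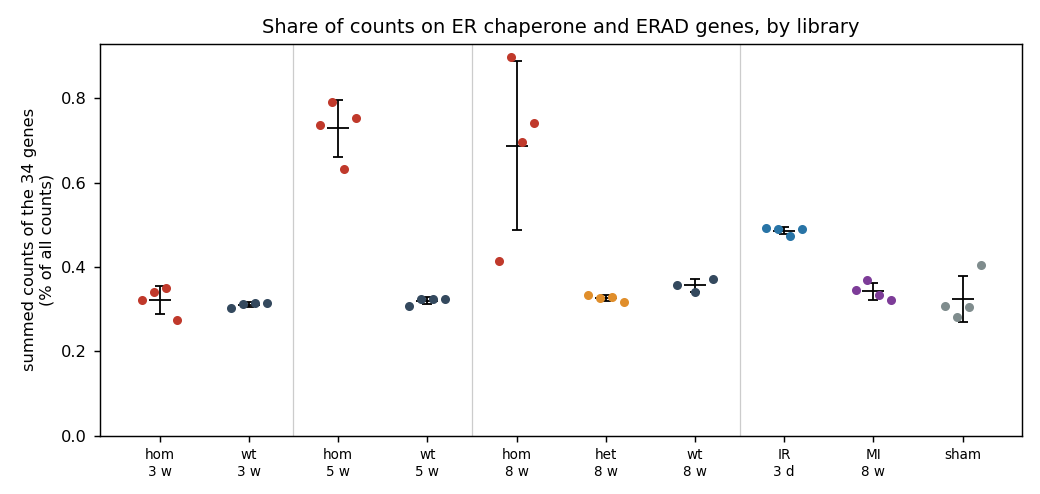
Summed counts of the 34 genes as a percentage of all counts, 1 point per library, with the mean and SD of each group (n = 3 for wild type at 8 weeks, otherwise n = 4; hom is homozygous, het heterozygous, wt wild type, IR ischemia-reperfusion, MI infarction). Homozygous hearts at 5 weeks lie between 0.634% and 0.791%, above all wild type libraries, while at 8 weeks 1 homozygous library lies at 0.415%.

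Most of these genes were higher in homozygous hearts at 5 and 8 weeks, and about as many as not 3 days after ischemia-reperfusion, while 3 were called 8 weeks after infarction and none in homozygous hearts of 3 weeks or in heterozygous hearts. The 34 genes took 0.634% to 0.791% of counts in homozygous and 0.308% to 0.325% in wild type hearts at 5 weeks. At 3 weeks they took 0.275% to 0.351% in homozygous and 0.302% to 0.315% in wild type hearts, so the groups overlapped. Homozygous replicate 4 of that age gave the 0.275%, and the other 3 gave 0.322% to 0.351%. In that replicate 16 of the 34 genes lay below the wild type range and 4 above it. In replicate 3, 24 lay above it and 2 below it. These positions use CPM without TMM scaling, and the share of all genes outside the range was not counted. Heterozygous hearts gave 0.317% to 0.335% at 8 weeks, where wild type hearts gave 0.34% to 0.372%. After ischemia-reperfusion the share was 0.474% to 0.493% and after infarction 0.322% to 0.37%, against 0.283% to 0.404% in shams.

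At 3 weeks 33 of the 34 genes had enough counts to be tested and none was called by edgeR (3 at an unadjusted p under 0.05, none by DESeq2), where 0.0% of all tested genes were called higher. Log2 fold changes of the 33 lay between -0.35 and 0.34 at that age. At 5 weeks 30 of 34 were higher and none was lower in homozygous hearts, with a median log2 fold change of 0.93, beside 22.3% of all genes higher, 21.4% lower and a median of -0.0012 over all genes. At 8 weeks 29 of 34 were higher and Ern1 was lower, with a median of 0.75, beside 30.8% of all genes higher, 29.0% lower and a median of 0.02. Without the homozygous replicate 1 the count at 8 weeks was 30 higher and 1 lower, with a median of 0.87. In heterozygous hearts at 8 weeks no member was called by edgeR (0 at an unadjusted p under 0.05; 0 by DESeq2) and 0.0% of all genes were. Against heterozygous hearts, homozygous hearts had 30 of 34 higher and none lower, beside 32.0% and 30.0% of all genes, and 32 higher without replicate 1. After ischemia-reperfusion 18 of 33 were higher and none lower, with a median of 0.39, beside 16.9% of all genes higher, 14.1% lower and a median of -0.02. Without the sham replicate 2 at 12 weeks that count was 22, with a median of 0.53. After infarction 1 of 33 was higher and 2 were lower, with a median of 0.04, beside 6.62% and 4.77% of all genes. These few calls lie near those shares. Without the high sham the counts were the same, but the gene called higher was P4hb (0.31, edgeR adjusted p = 0.0228) in place of Sec61a1. Without infarction replicate 4, 5 genes were called. The tissue is a mix of cells, in which fewer cells of a type and less RNA per cell cannot be told apart.

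**Figure D2:**
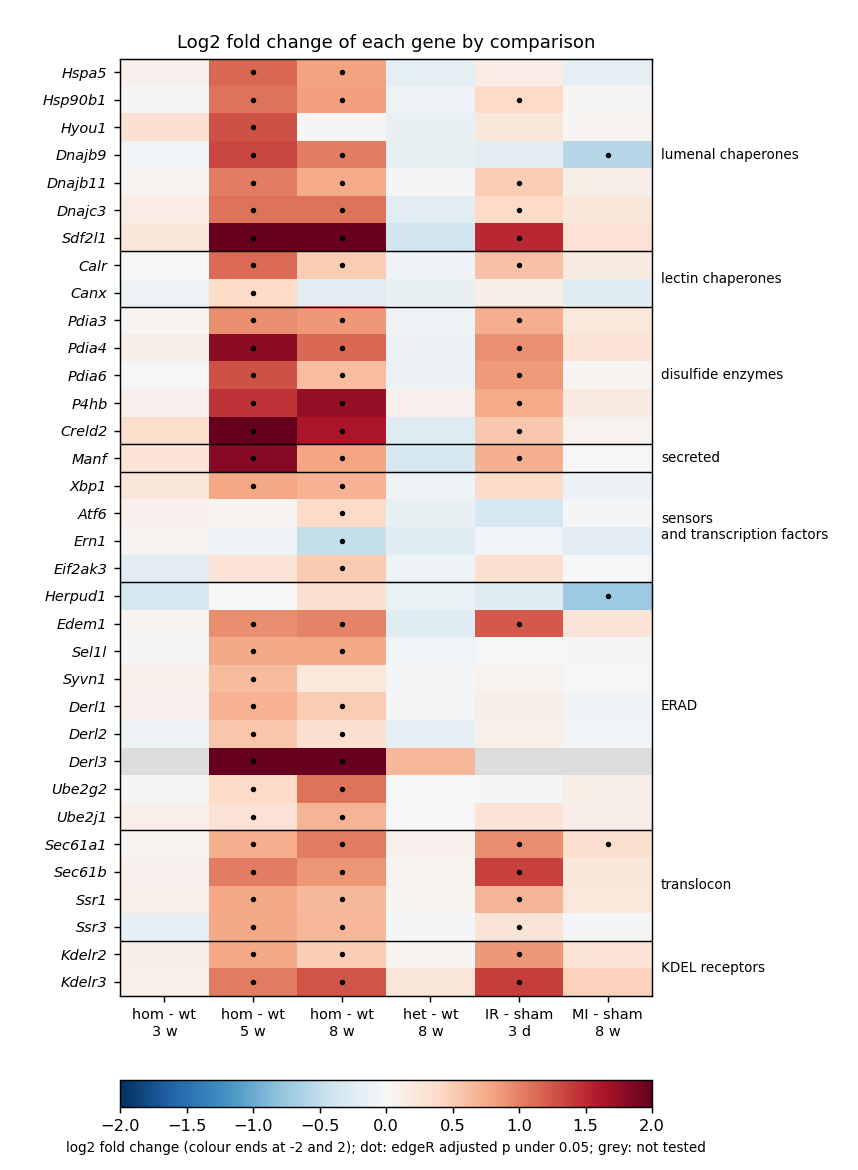
Log2 fold change of each of the 34 genes (rows, grouped by role) in 6 comparisons (columns), with a dot where edgeR's adjusted p is under 0.05 and grey where the gene was not tested. Dots fill most of the columns for homozygous hearts at 5 weeks (30 genes) and 8 weeks (30 genes), none stands at 3 weeks or for heterozygous hearts, and after ischemia-reperfusion (18 genes) they mark all 5 enzymes of disulfide bonds, all 4 translocon genes and both KDEL receptors.

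Lumenal chaperones. All 7 were higher in homozygous hearts at 5 weeks and 6 of 7 at 8 weeks. Counts by role, here and below, are read beside the shares of all genes called higher. These were 22.3% at 5 weeks, 30.8% at 8 weeks and 16.9% after ischemia-reperfusion. Sdf2l1, a partner of ER J-domain proteins that is strongly induced by ER stress, held 50.5, 55.3, 41.8 and 53.1 CPM in homozygous and 4.39, 3.71, 7.85 and 7.26 CPM in wild type ventricles at 5 weeks. The groups were far apart, with a log2 fold change of 2.90 ± 0.16 (edgeR adjusted p = 7.85e-11). Its 8 week values were 10.3, 48.6, 32.4 and 38.3 CPM in homozygous and 6.52, 6.21 and 8.30 CPM in wild type ventricles (2.02 ± 0.36, edgeR adjusted p = 3.39e-04, and 2.30 without replicate 1). The lowest homozygous value, that of replicate 1, still lay above the highest wild type value. After ischemia-reperfusion Sdf2l1 stood at 16.3, 14.8, 16.9 and 16.3 CPM, above all shams at 3.41, 9.11, 2.55 and 4.29 CPM (1.51 ± 0.29, edgeR adjusted p = 0.00100, and 1.97 without the high sham). Shams are listed here and below with the 2 taken at 12 weeks of age before the 2 taken at 20 weeks. Dnajc3, a J-domain co-chaperone also known as an inhibitor of PERK, held 90.01, 191, 141 and 129 CPM in homozygous and 54.5, 55.3 and 62.9 CPM in wild type ventricles at 8 weeks. All 4 homozygous values were above the wild type range (1.08 ± 0.16, edgeR adjusted p = 8.92e-05, and 1.21 without replicate 1), and at 5 weeks the log2 fold change was 1.08 ± 0.07.

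Hspa5, the Hsp70 of the ER lumen (BiP), and Hyou1, its nucleotide exchange factor, are given here although chosen after their values were seen. Hspa5 held 1339.9, 1418, 1123 and 1329.8 CPM in homozygous hearts at 5 weeks, against 509.6, 480.0, 537 and 502 CPM in wild type ventricles (1.15 ± 0.07, edgeR adjusted p = 3.94e-10). By 8 weeks it stood at 581, 2018, 1345 and 1373 CPM in homozygous and 681, 612 and 714 CPM in wild type ventricles (0.80 ± 0.26, edgeR adjusted p = 0.0162). Replicate 1 lay below all wild type libraries and the other 3 lay far above them. Without replicate 1 the log2 fold change was 1.03 (edgeR adjusted p = 4.69e-05), and without the wild type replicate 2 the call ended (edgeR adjusted p = 0.0609). Hyou1 held 128, 136, 119 and 141 CPM in homozygous and 45.2, 48.3, 46.2 and 47.2 CPM in wild type ventricles at 5 weeks (1.28 ± 0.06, edgeR adjusted p = 2.00e-11). At 8 weeks, with 39.2, 102, 72.7 and 107 CPM in homozygous and 71.8, 64.9 and 70.3 CPM in wild type ventricles, the groups overlapped and Hyou1 was not called (0.02 ± 0.21, edgeR adjusted p = 0.928). It was not called without replicate 1 either (log2 fold change 0.23). The other 3 were Hsp90b1, the Hsp90 of the ER lumen, and the J-domain proteins Dnajb9 and Dnajb11. Their log2 fold changes were 1.08, 1.34 and 1.03 at 5 weeks and 0.82, 1.02 and 0.74 at 8 weeks, all called. Without replicate 1 the 8 week values were 1.02, 1.24 and 0.85.

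Lectin chaperones. Calreticulin (Calr, soluble in the lumen) and calnexin (Canx, its membrane-bound relative) bind glycoproteins that carry trimmed glycans, and calreticulin is also a main calcium buffer of the ER. At 5 weeks both were higher. Calr held 835, 876, 688 and 805 CPM in homozygous and 301, 313, 321 and 335 CPM in wild type ventricles (1.13 ± 0.07, edgeR adjusted p = 4.48e-10). Canx held 365, 416, 361 and 426 CPM in homozygous and 249.2, 273, 270.4 and 258 CPM in wild type ventricles (0.37 ± 0.06, edgeR adjusted p = 1.20e-04). At 8 weeks Calr remained higher by the test with 309, 660.1, 501 and 671 CPM in homozygous and 341, 313 and 342 CPM in wild type ventricles (0.51 ± 0.17, edgeR adjusted p = 0.0205, and 0.67 without replicate 1), but replicate 1 lay below the wild type range and the call ended in 5 of 16 alternatives. Canx held 208, 316, 295 and 279 CPM in homozygous and 283, 274 and 299 CPM in wild type ventricles at 8 weeks and was not called (-0.23 ± 0.11, edgeR adjusted p = 0.101, and -0.15 without replicate 1). After ischemia-reperfusion Calr held 459.7, 437, 474 and 473 CPM, above the shams at 267, 305, 230.5 and 246 CPM (0.59 ± 0.08, edgeR adjusted p = 8.97e-05, and 0.65 without the high sham).

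Disulfide enzymes. All 5 genes were higher in homozygous hearts at both ages and after ischemia-reperfusion. P4hb encodes protein disulfide isomerase itself, which also serves as a subunit of the collagen prolyl 4-hydroxylase. It held 675, 1189, 1048 and 1087 CPM in homozygous and 261, 260.3 and 273 CPM in wild type ventricles at 8 weeks (1.74 ± 0.15, edgeR adjusted p = 1.90e-06, and 1.85 without replicate 1). Every homozygous library, replicate 1 included, was more than 2 times the highest wild type library. At 5 weeks P4hb held 796, 838, 688 and 803 CPM in homozygous and 238, 259, 247 and 247 CPM in wild type ventricles (1.45 ± 0.07, edgeR adjusted p = 7.05e-12). It rose to 474, 511, 469 and 512 CPM after ischemia-reperfusion, against 243, 334, 216 and 219 CPM in shams (0.74 ± 0.11, edgeR adjusted p = 1.30e-04, and 0.88 without the high sham). Creld2, an oxidoreductase induced by ER stress, held 87.3, 89.6, 62.04 and 74.5 CPM in homozygous and 10.2, 14.8, 11.7 and 12.3 CPM in wild type ventricles at 5 weeks (2.47 ± 0.12, edgeR adjusted p = 1.22e-11). At 8 weeks it held 18.3, 85.6, 52.1 and 70.5 CPM in homozygous and 15.00, 14.3 and 18.4 CPM in wild type ventricles (1.64 ± 0.33, edgeR adjusted p = 0.00102, and 1.91 without replicate 1), and replicate 1 lay inside the wild type range. The disulfide isomerases Pdia3, a partner of calreticulin and calnexin, Pdia4 and Pdia6 had log2 fold changes of 0.92, 1.79 and 1.28 at 5 weeks, of 0.86, 1.16 and 0.62 at 8 weeks and of 0.72, 0.92 and 0.86 after ischemia-reperfusion. Without replicate 1 the 8 week values were 0.99, 1.38 and 0.83, and without the high sham those after ischemia-reperfusion were 0.81, 1.04 and 1.02. The call of Pdia6 at 8 weeks ended in 6 of 16 alternatives. The call of Creld2 after ischemia-reperfusion (0.53 ± 0.15, edgeR adjusted p = 0.0147, and 0.72 without the high sham) ended in 4 of 18, among them the shams of matching age, with adjusted p up to 0.181. Manf, a small ER protein that is secreted when ER calcium falls, held 149.6, 129, 96.9 and 121 CPM in homozygous and 30.7, 28.3, 32.8 and 30.2 CPM in wild type ventricles at 5 weeks (1.82 ± 0.10, edgeR adjusted p = 8.15e-11). Its 8 week values were 32.98, 99.5, 78.6 and 95.3 CPM in homozygous and 39.8, 37.2 and 39.1 CPM in wild type ventricles (0.79 ± 0.24, edgeR adjusted p = 0.0108, and 1.02 without replicate 1). Replicate 1 alone was below the wild type libraries. After ischemia-reperfusion Manf stood at 63.4, 60.9, 75.3 and 55.5 CPM, against 27.7, 56.2, 20.1 and 30.4 CPM in shams (0.71 ± 0.21, edgeR adjusted p = 0.0165, and 1.04 without the high sham), and 1 sham, the high one, lay within the range of the injured hearts. That call ended in 3 of 18 alternatives (age-matched shams, without ischemia-reperfusion replicate 3 and without sham replicate 1 at 20 weeks), with adjusted p up to 0.212.

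**Figure D3:**
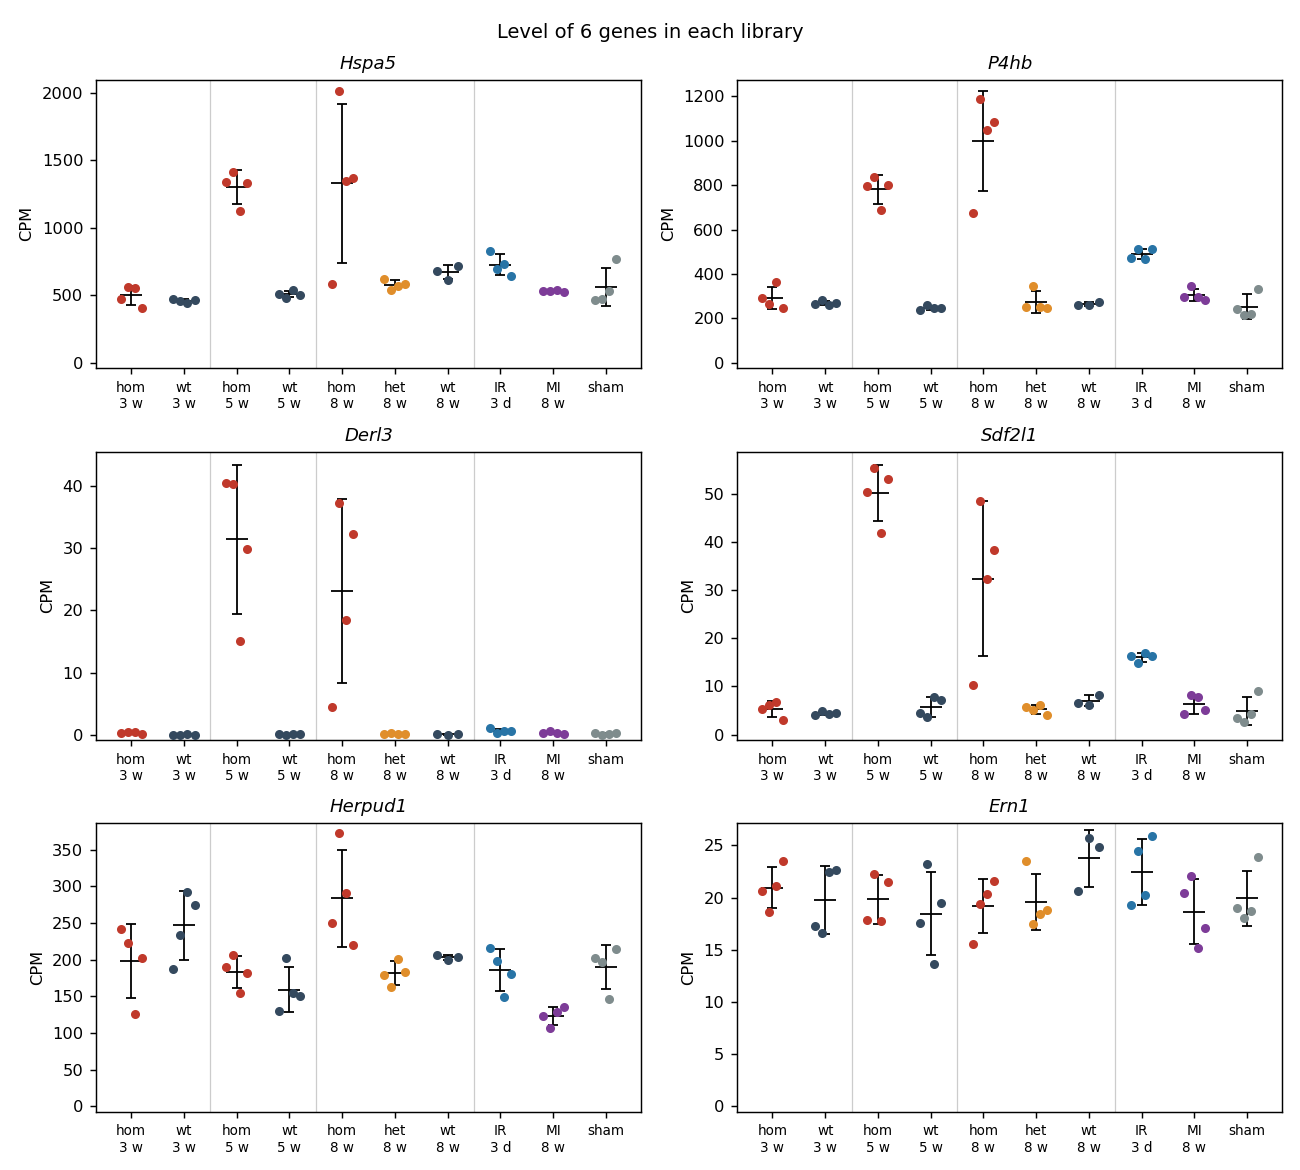
Level of 6 genes in CPM, 1 point per library, with the mean and SD of each group; each panel starts at 0 and groups are named as in the plot of shares. Sdf2l1 and P4hb lie above every wild type library in all homozygous libraries at 5 and 8 weeks, Hspa5 does so in all but 1 library at 8 weeks (581 CPM), Derl3 is near 0 outside homozygous hearts of 5 and 8 weeks, Herpud1 is lowest after infarction, and Ern1 overlaps between groups.

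Sensors and transcription factors. At 5 weeks Xbp1 alone of the 4 was called, and at 8 weeks Xbp1, Atf6 and Eif2ak3 were higher and Ern1 was lower. Xbp1, whose spliced form is a main activator of ERAD genes, held 121, 119.9, 116 and 124 CPM in homozygous and 55.2, 67.6, 60.5 and 61.6 CPM in wild type ventricles at 5 weeks (0.77 ± 0.07, edgeR adjusted p = 2.35e-08). By 8 weeks it stood at 76.4, 151, 132 and 155 CPM in homozygous and 71.9, 63.7 and 74.5 CPM in wild type ventricles (0.70 ± 0.15, edgeR adjusted p = 0.00150, and 0.85 without replicate 1). Counts per gene do not separate the spliced from the unspliced form. Atf6 held 125, 149, 134 and 149 CPM in homozygous and 94.4, 124, 112 and 134 CPM in wild type ventricles at 5 weeks, which overlapped (0.06 ± 0.09, edgeR adjusted p = 0.616). At 8 weeks it held 200.4, 225, 202 and 167 CPM in homozygous and 127, 146 and 139 CPM in wild type ventricles (0.38 ± 0.11, edgeR adjusted p = 0.00942, and 0.32 without replicate 1), with replicate 1 inside the range of the other 3. Eif2ak3 held 17.6, 23.2, 19.7 and 20.05 CPM in homozygous and 14.9, 16.3, 12.7 and 13.9 CPM in wild type ventricles at 5 weeks (0.27 ± 0.11, edgeR adjusted p = 0.0537). At 8 weeks Eif2ak3 held 15.2, 26.6, 23.7 and 25.5 CPM in homozygous and 13.4, 13.4 and 15.2 CPM in wild type ventricles (0.53 ± 0.13, edgeR adjusted p = 0.00278, and 0.65 without replicate 1), all 4 above the wild type range, the lowest of them narrowly. Ern1, the gene of IRE1, held 15.6, 19.4, 20.4 and 21.6 CPM in homozygous and 20.7, 25.7 and 24.9 CPM in wild type ventricles at 8 weeks (-0.47 ± 0.12, edgeR adjusted p = 0.00374, and -0.43 without replicate 1). The highest homozygous library lay inside the wild type range, and the call ended with scaling by library size, which moves the median of all genes by over 0.1 (edgeR adjusted p = 0.0734). At 5 weeks Ern1 was not called, with 17.8, 22.3, 17.8 and 21.5 CPM in homozygous and 17.6, 23.2, 13.6 and 19.4 CPM in wild type ventricles (-0.10 ± 0.13, edgeR adjusted p = 0.561). After ischemia-reperfusion and after infarction none of the 4 was called. Their log2 fold changes after ischemia-reperfusion were 0.38 for Xbp1, -0.34 for Atf6, -0.05 for Ern1 and 0.34 for Eif2ak3, and 0.58, -0.21, 0.02 and 0.35 without the high sham, where Xbp1 was called. The sign of Ern1 there turned in 4 of 18 alternatives, and its sign at 5 weeks in 2 of 17.

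ERAD. Of the 9 genes, 8 were higher in homozygous hearts at 5 weeks and 7 at 8 weeks. Derl3, a derlin of the membrane channel through which misfolded chains leave the ER, was nearly silent in every group but homozygous hearts of 5 and 8 weeks. It held 40.4, 40.3, 15.1 and 29.8 CPM in homozygous hearts at 5 weeks, against 0.187, 0, 0.181 and 0.0834 CPM in wild type ventricles. In counts this was 1320 over the 4 homozygous libraries against 5 over the 4 wild type libraries, a ratio of 285 per library total (95% exact interval 122 to 879.6, counting error only). Its 8 week values were 4.55, 37.3, 18.5 and 32.2 CPM in homozygous, 0.207, 0.290, 0.159 and 0.114 CPM in heterozygous and 0.109, 0.0603 and 0.206 CPM in wild type ventricles. The counts were 1559 in homozygous and 6 in wild type hearts, a ratio of 189.9 (87.1 to 518). Replicate 1, at 78 counts, was far below the others of its group and far above every wild type library. The fitted log2 fold changes were 7.80 ± 0.45 at 5 weeks (edgeR adjusted p = 1.17e-10) and 7.29 ± 0.80 at 8 weeks (edgeR adjusted p = 8.70e-06), and 7.62 without replicate 1; with so few wild type counts these fitted values depend on edgeR's prior count. The gene lies at chr10:75893413-75895941 on the plus strand (GRCm38). At 3 weeks Derl3 was below the filter, with 23 counts over the 4 homozygous and 4 over the 4 wild type libraries, a ratio of 5.07 (1.73 to 20.2). The CPM values, 0.317, 0.392, 0.511 and 0.128 in homozygous and 0, 0.0637, 0.198 and 0 in wild type hearts, overlapped (exact permutation test, two-sided p = 0.0571, where 0.0286 is the smallest possible with 4 against 4), and with no filter the edgeR adjusted p was 0.398. After ischemia-reperfusion there were 35 counts, against 9 in shams, a ratio of 3.3 (1.56 to 7.81), and Derl3 was not tested there either. The p values that 3 wild type hearts allow at 8 weeks are too coarse to pass 0.05 in such a two-sided permutation (p = 0.0571).

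The other ERAD genes moved over a narrower range. Ube2g2, a ubiquitin-conjugating enzyme of ERAD, held 125, 161, 154 and 166 CPM in homozygous and 61.8, 63.7 and 65.3 CPM in wild type ventricles at 8 weeks (1.08 ± 0.07, edgeR adjusted p = 3.86e-07, and 1.12 without replicate 1). All homozygous libraries, replicate 1 included, lay far above the wild type range. At 5 weeks the values were 79.1, 74.4, 75.2 and 85.6 CPM in homozygous and 51.8, 55.5, 50.3 and 51.8 CPM in wild type ventricles (0.38 ± 0.07, edgeR adjusted p = 1.31e-04). Ube2j1, a membrane-bound enzyme of the same kind, had log2 fold changes of 0.29 at 5 weeks and 0.67 at 8 weeks (0.71 without replicate 1). Edem1, a lectin-like factor that directs glycoproteins to ERAD, had 0.93 at 5 weeks, 0.999 at 8 weeks (1.16 without replicate 1) and 1.22 after ischemia-reperfusion, where it was the only one of the 8 ERAD genes tested that was called (edgeR adjusted p = 2.81e-05, and 1.30 without the high sham). Sel1l, the adaptor of the ubiquitin ligase complex, had 0.75 at 5 weeks and 0.76 at 8 weeks (0.90 without replicate 1). Syvn1, the ligase itself (HRD1), had 0.63 at 5 weeks, called, and 0.22 at 8 weeks, not called (edgeR adjusted p = 0.180); without replicate 1 it was called at 8 weeks (0.35, edgeR adjusted p = 0.00357). Derl1 and Derl2 had 0.70 and 0.56 at 5 weeks and 0.51 and 0.32 at 8 weeks, all called. Without replicate 1 the 8 week values were 0.59 and 0.38, and the call of Derl2 at 8 weeks ended without wild type replicate 1 or replicate 2 (adjusted p up to 0.0524).

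Herpud1, a scaffold of the ligase complex that is itself turned over by ERAD, is given in full after its values were seen. It held 190.0, 207, 155 and 182 CPM in homozygous and 129.9, 202, 155 and 150.4 CPM in wild type ventricles at 5 weeks (-0.002 ± 0.10, edgeR adjusted p = 0.991). By 8 weeks it stood at 250.4, 373, 291 and 219.7 CPM in homozygous and 206, 199 and 204 CPM in wild type ventricles (0.32 ± 0.15, edgeR adjusted p = 0.0778, and 0.33 without replicate 1). Every homozygous library was higher than the wild type libraries at that age in CPM, but the test did not call it. It was called with limma-voom, with library size scaling and without homozygous replicate 4, and against heterozygous hearts it was higher (0.45 ± 0.13, edgeR adjusted p = 0.0116), a call that held in all alternatives. The sign of its 5 week value turned in 6 of 17 alternatives. After infarction Herpud1 fell to 123, 107, 128 and 135 CPM, against 202, 215, 197 and 146 CPM in shams (-0.72 ± 0.13, edgeR adjusted p = 0.00339, and -0.68 without the high sham), with no overlap. The J-domain gene Dnajb9, also chosen after its values were seen, fell there too, to 30.95, 30.6, 35.1 and 37.1 CPM, against 42.2, 55.05, 46.3 and 41.4 CPM in shams (-0.57 ± 0.11, edgeR adjusted p = 0.00539, and -0.49 without the high sham). Both falls held in all 18 alternatives.

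Translocon and KDEL receptors. Sec61a1 and Sec61b encode subunits of the channel through which nascent chains enter the ER, and Ssr1 and Ssr3 subunits of the translocon-associated protein complex. All 4 were higher in homozygous hearts at both ages and after ischemia-reperfusion. Sec61a1 held 85.6, 151, 131 and 156 CPM in homozygous and 54.7, 54.9 and 59.5 CPM in wild type ventricles at 8 weeks (1.04 ± 0.13, edgeR adjusted p = 2.22e-05, and 1.16 without replicate 1). After ischemia-reperfusion it held 86.8, 96.5, 96.6 and 115 CPM and after infarction 59.9, 64.5, 58.97 and 54.5 CPM, against 50.8, 46.4, 35.4 and 44.04 CPM in shams. Both groups were called higher, with 0.93 ± 0.09 after ischemia-reperfusion (edgeR adjusted p = 5.87e-06, and 0.94 without the high sham) and 0.32 ± 0.10 after infarction (edgeR adjusted p = 0.0411), but the call after infarction ended in 7 of 18 alternatives, with adjusted p up to 0.14. Sec61b held 7.36, 14.05, 12.2 and 17.5 CPM in homozygous and 6.79, 4.70 and 6.86 CPM in wild type ventricles at 8 weeks (0.88 ± 0.21, edgeR adjusted p = 0.00308, and 1.04 without replicate 1). After ischemia-reperfusion it held 13.96, 14.7, 17.5 and 18.3 CPM, against 6.01, 7.92, 2.77 and 4.74 CPM in shams (1.36 ± 0.21, edgeR adjusted p = 1.83e-04, and 1.58 without the high sham). Ssr1 and Ssr3 had log2 fold changes of 0.77 and 0.75 at 5 weeks, 0.65 and 0.67 at 8 weeks and 0.68 and 0.26 after ischemia-reperfusion. Without replicate 1 the 8 week values were 0.73 and 0.78, and without the high sham those after ischemia-reperfusion were 0.72 and 0.26. The KDEL receptors return ER proteins that have escaped to the Golgi. Kdelr3 held 13.1, 23.7, 21.3 and 38.7 CPM in homozygous and 9.40, 7.71 and 9.39 CPM in wild type ventricles at 8 weeks (1.27 ± 0.26, edgeR adjusted p = 0.00100, and 1.44 without replicate 1), and 16.9, 25.6, 23.2 and 28.7 CPM after ischemia-reperfusion, against 12.02, 6.83, 4.15 and 7.83 CPM in shams (1.38 ± 0.24, edgeR adjusted p = 5.58e-04, and 1.31 without the high sham). Kdelr2 held 34.97, 58.7, 50.7 and 70.7 CPM in homozygous and 34.4, 33.1 and 34.01 CPM in wild type ventricles at 8 weeks (0.49 ± 0.14, edgeR adjusted p = 0.00887, and 0.61 without replicate 1). After ischemia-reperfusion it held 58.4, 62.4, 64.7 and 68.03 CPM, against 28.2, 33.96, 25.6 and 30.8 CPM in shams (0.87 ± 0.09, edgeR adjusted p = 8.91e-06, and 0.92 without the high sham).

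The homozygous libraries at 8 weeks did not move as 1 block. In replicates 2, 3 and 4, 33, 32 and 32 of the 34 genes lay above the range of the 3 wild type libraries. In replicate 1, 21 lay above it, 5 within it and 8 below it. The 8 below were Hspa5, Calr, Canx, Pdia6, Hyou1, Manf, Ern1 and Syvn1. The 21 above included P4hb, Ube2g2, Atf6, Dnajc3 and all 4 genes of the translocon. At 5 weeks the 4 homozygous libraries each had 31 to 33 genes above the wild type range and none below it. The counts at both ages use CPM without TMM scaling. Canx lay above the range in replicate 2 at 8 weeks, although its fitted log2 fold change without replicate 1 was -0.15. The share of all genes outside the wild type range was not counted. Macrophage markers summed to 1340 CPM in replicate 1 and 1883 to 2627 CPM in the other 3, fibroblast markers to 4829 CPM and 7248 to 8966 CPM, and cardiomyocyte markers to 49001 CPM and 29306 to 38508 CPM. The part of these differences, and of the mitochondrial share, in the lower chaperone level of that library was not tested.

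**Figure D4:**
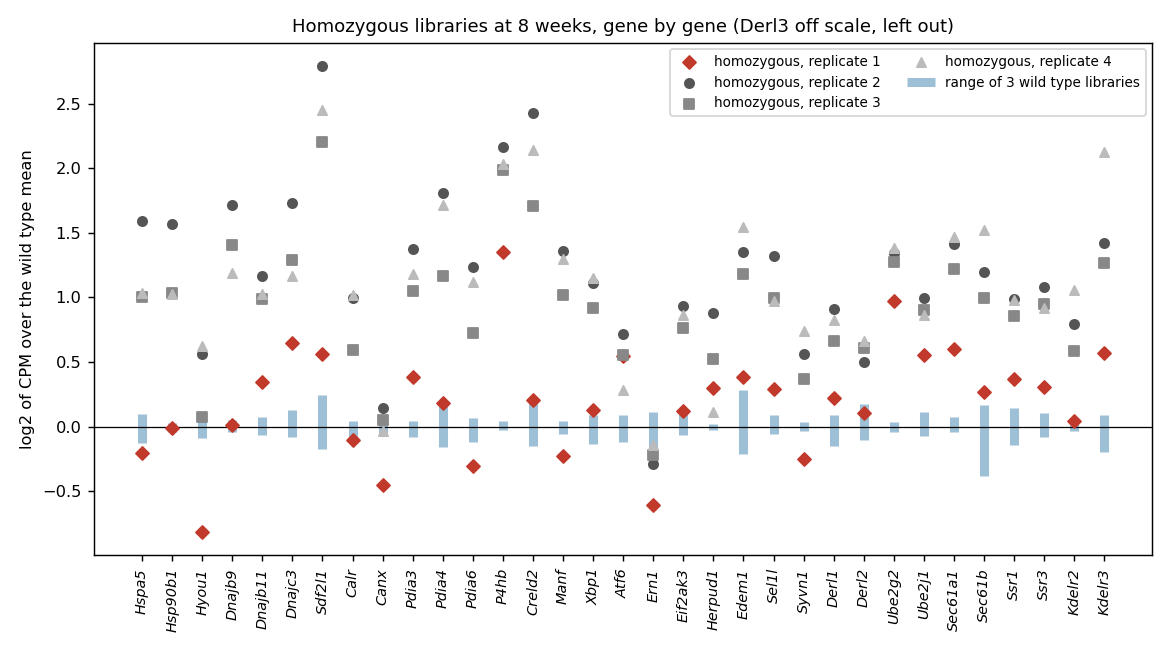
Log2 ratio of CPM to the wild type mean at 8 weeks for 33 genes (Derl3 left out as off scale), 1 symbol per homozygous library; bars span the 3 wild type libraries. Replicate 1 (diamonds) lies below the wild type bars at Hspa5, Hyou1, Calr, Canx, Pdia6, Manf, Ern1 and Syvn1, and well above them at P4hb and Ube2g2.

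Differences between ages were tested as interactions in a fit of all 39 libraries. From 3 to 5 weeks the difference between homozygous and wild type hearts grew for 28 of 34 genes and shrank for none, beside 11.1% and 9.29% of all genes. The gains on the log2 scale were 5.65 ± 2.05 for Derl3, whose call ended in 11 of 23 alternatives, and 2.66 ± 0.44 for Sdf2l1 (edgeR adjusted p = 4.20e-05). From 5 to 8 weeks the difference was larger for 2 genes and smaller for 5, beside 14.4% and 13.8% of all genes. The first count lies below its share and the second near it. The genotype difference changed with age for single genes as follows. It was larger for the ubiquitin-conjugating enzymes Ube2g2 (0.73 ± 0.09, edgeR adjusted p = 1.22e-07) and Ube2j1 (0.41 ± 0.13, edgeR adjusted p = 0.0132). It was smaller for Hyou1 (-1.23 ± 0.22, edgeR adjusted p = 6.79e-05), Manf (-0.995 ± 0.30, edgeR adjusted p = 0.0105), Pdia6 (-0.63 ± 0.23), Calr (-0.59 ± 0.18) and Canx (-0.57 ± 0.14). The 5 genes are among the 8 that lay below the wild type range in homozygous replicate 1. Without that library the 8 week difference was still smaller for Hyou1 (-1.03, edgeR adjusted p = 1.60e-05), Manf (-0.77, edgeR adjusted p = 0.0156), Canx (-0.50, edgeR adjusted p = 0.00386) and Calr (-0.44, edgeR adjusted p = 0.0197), but not for Pdia6 (-0.42, edgeR adjusted p = 0.0589). It was larger for 4 genes, P4hb and Sec61a1 in addition to the 2 enzymes. Without homozygous replicate 2, 12 genes were called, 2 with a larger and 10 with a smaller difference. Without replicate 4, 12 were called, 3 larger and 9 smaller. With all libraries the median change over the 34 genes was -0.19, beside -0.0008 over all genes. The 5 week libraries carry another style of sample name in the labels than those of 3 and 8 weeks, so age and library set cannot be told apart.

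**Figure D5:**
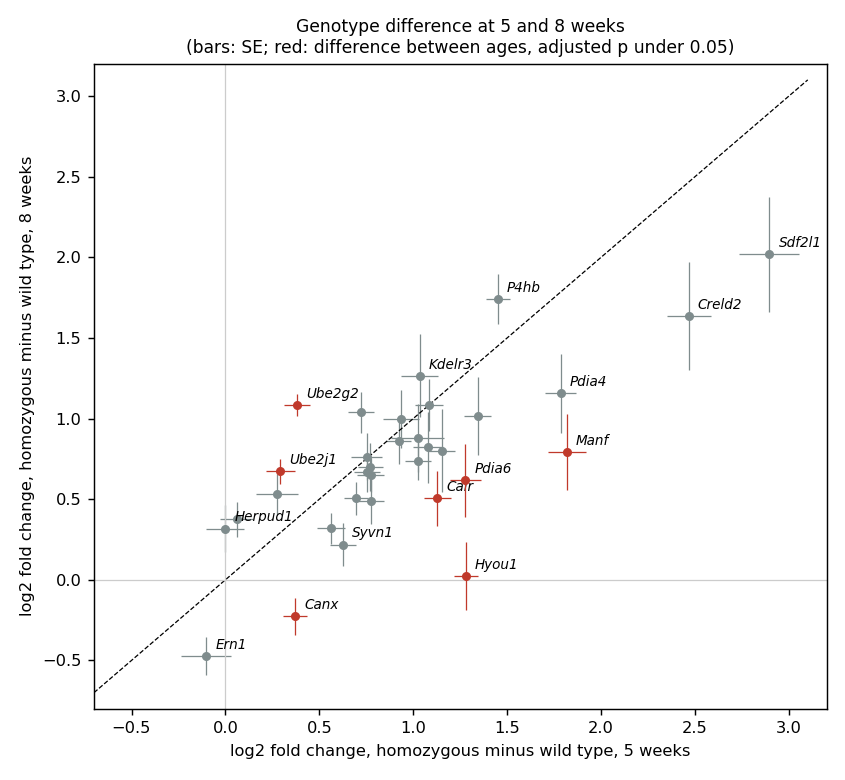
Log2 fold change of homozygous over wild type hearts at 5 weeks (horizontal) and 8 weeks (vertical) for 33 genes (Derl3 off scale), with SE; red marks genes whose difference between ages had an adjusted p under 0.05, and the dashed line marks equal change. Ube2g2 and Ube2j1 lie above the line, and Hyou1, Manf, Pdia6, Calr and Canx below it.

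Wild type hearts of different ages were also compared. Between 8 and 3 weeks 4 of 34 genes were higher, Canx, Dnajb9, Hspa5 and Ube2g2, and Kdelr3 was lower, beside 4.73% and 3.67% of all genes. Hspa5 held 681, 612 and 714 CPM at 8 weeks and 469.9, 461, 446 and 468 CPM at 3 weeks (0.56 ± 0.18, edgeR adjusted p = 0.0455). Canx alone of the 5 kept its call in all alternatives, and the count was 1 without any 1 of the 3 wild type libraries of 8 weeks, 2 without 3 week replicate 1 or 2 and 3 without 3 week replicate 4, but 12 with limma-voom, 11 of them higher. Per kilobase of exon, the order of levels in wild type hearts at 8 weeks was led by Hspa5 at 158 CPM per kb, Calr at 115, P4hb at 92.5, Herpud1 at 87.0 and Hsp90b1 at 86.4. In homozygous hearts of that age P4hb led with 349 CPM per kb, followed by Hspa5 at 314, Calr at 186, Hsp90b1 at 174 and Herpud1 at 122. Derl3 was last of 34 in wild type hearts at 0.06 CPM per kb and 26th in homozygous hearts at 11.6 CPM per kb. These levels per kilobase are means, and the SD of Hspa5 in homozygous hearts spans the gap to P4hb.

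The difference of homozygous hearts at 8 weeks from wild type was larger than that of infarcted hearts from shams for 27 of 34 genes and smaller for none, beside 19.6% and 17.7% of all genes, and for 30 without homozygous replicate 1. The widest gaps were those of Derl3 (6.82 ± 1.53) and Sdf2l1 (1.75 ± 0.45, edgeR adjusted p = 0.00240). It was larger than that of hearts after ischemia-reperfusion for 12 genes and smaller for none, beside 16.6% and 17.2% of all genes, and for 15 without homozygous replicate 1. Those 12 held 5 ERAD genes, Derl3 (5.84 ± 1.45), Ube2g2, Ube2j1, Sel1l and Derl1, with Dnajb9 (1.27 ± 0.23, edgeR adjusted p = 5.88e-05), Hspa5, Dnajc3, Creld2, P4hb, Atf6 and Ssr3. The call of Hspa5 there ended in 9 of 22 alternatives, with adjusted p up to 0.155, and those of Derl1, Ube2j1 and Ssr3 ended with library size scaling. The KDEL receptors and the lectin chaperones were not among the 12. Ages and surgery differ between the mutant and the surgery hearts, and cannot be told apart from the conditions in these 2 contrasts. After ischemia-reperfusion Hspa5 held 830.4, 694, 734 and 646 CPM, against 467, 773, 476 and 529 CPM in shams, and was not called (0.15 ± 0.13, edgeR adjusted p = 0.426). Its highest sham is replicate 2 at 12 weeks, without which the log2 fold change was 0.32 (edgeR adjusted p = 0.0276). Without that sham Hspa5, Hyou1, Canx and Xbp1 joined the 18, and against the 2 shams of matching age alone 13 genes were called. That sham is 1 of those 2, and without it most of the shams left were taken at 20 weeks. Age and time after surgery can then not be fully told apart from the injury.

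In heterozygous hearts 11 of the 34 genes lay below the wild type range in CPM in every library. As groups, 23 overlapped wild type and 0 lay wholly above it. Of the 34 genes, 28 lay below the range of the 3 wild type libraries in heterozygous replicate 4 and 17 to 22 in the other 3. The counts use CPM without TMM scaling, and the share of all genes below that range was not counted. Mitochondrial genes took 16.8% to 18.6% of counts in heterozygous and 15.2% to 16.5% in wild type hearts. Hspa5 held 621, 539.7, 569 and 587 CPM in heterozygous hearts, Sdf2l1 5.75, 5.16, 6.16 and 3.98 CPM and P4hb 253, 348, 251.4 and 247 CPM. The median log2 fold change was -0.09, and none was called, which does not show that the groups were alike.

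Genes with and without an ERSE in the promoter window were higher in the same comparisons. At 5 weeks all 9 genes with an ERSE were higher, with a median log2 fold change of 1.13, and 15 of 18 with a window but no ERSE were higher, with a median of 0.85. At 8 weeks 7 of 9 with an ERSE were higher, with a median of 0.80, and 16 of 18 without were higher and 1 was lower, with a median of 0.75. Canx and Syvn1, whose windows hold the element, were the 2 of those 9 not called at 8 weeks. After ischemia-reperfusion 5 of 8 tested genes with an ERSE and 10 of 18 without were higher, with medians of 0.40 and 0.44. Over all genes 22.3% were higher at 5 weeks, 30.8% at 8 weeks and 16.9% after ischemia-reperfusion. These are counts of chosen genes and carry no test.

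Other genes of the ER, of transport to the Golgi and of the response to ER stress were followed in 7 lists. Their counts are read beside the shares of all genes called. These shares were 22.3% higher and 21.4% lower at 5 weeks and 30.8% and 29.0% at 8 weeks. They were 16.9% and 14.1% after ischemia-reperfusion and 6.62% and 4.77% after infarction. Of 27 other folding enzymes 25 were higher and 1 was lower in homozygous hearts at 5 weeks, and 20 and 1 at 8 weeks. Those with the smallest p at 8 weeks were Qsox1, a sulfhydryl oxidase (1.49 ± 0.13), and Txndc5, a disulfide isomerase (1.12 ± 0.11). Serpinh1, the collagen chaperone Hsp47, was higher at 5 weeks (0.90 ± 0.06, edgeR adjusted p = 2.19e-09) and lower at 8 weeks (-0.79 ± 0.20, edgeR adjusted p = 0.00485). Of 18 genes of N-glycosylation 14 were higher at 5 weeks, and 10 were higher and 2 lower at 8 weeks. Alg5 (1.19 ± 0.13) and Tusc3 (0.82 ± 0.13) were among the rises at 8 weeks, and Magt1 (-0.71 ± 0.13) and Uggt2 (-0.38 ± 0.13) were the 2 falls. Of 22 other ERAD genes 10 were higher and 2 lower at 5 weeks, and 14 and 4 at 8 weeks, with the lectin Os9 (1.16 ± 0.11) and Ubxn4 (0.72 ± 0.07) higher and the ubiquitin ligases Rnf5 (-0.51 ± 0.10) and March6 (-0.58 ± 0.12) lower. Of 19 tested genes of translocation 15 were higher and 1 lower at 5 weeks, and 12 and 1 at 8 weeks. Spcs1, of the signal peptidase, had 0.69 ± 0.08 and Sec62 0.62 ± 0.08 at 8 weeks, and Sec61a2, the paralog of Sec61a1, -0.38 ± 0.10. Of 27 genes of transport to the Golgi 21 were higher and 1 lower at 5 weeks, and 18 and 2 at 8 weeks. Tmed3 (1.44 ± 0.17) and Mcfd2 (0.70 ± 0.08) were higher at 8 weeks, and the coat gene Sec24c (-0.41 ± 0.08) and Sec16a (-0.27 ± 0.08) were lower. Of 12 outputs of PERK and ATF4 9 were higher at 5 weeks and 11 at 8 weeks, with a median of 0.82 at 5 weeks and 1.18 at 8 weeks. Nupr1, a stress-induced chromatin factor, had 3.35 ± 0.21 at 8 weeks and Ppp1r15a, which reverses the block that PERK puts on translation, 1.77 ± 0.18. Of 12 related sensors and processing factors 6 were higher and 1 lower at 5 weeks, and 5 and 2 at 8 weeks. Creb3 (1.08 ± 0.12) and Creb3l2 (0.58 ± 0.08), membrane-bound factors of the ATF6 kind, were higher at 8 weeks, and Nfyc (-0.56 ± 0.08) and Nfya (-0.73 ± 0.18), subunits of the factor that binds the CCAAT of the ERSE, were lower. After ischemia-reperfusion 13 of the folding enzymes and 11 of the N-glycosylation genes were higher, with 0 and 1 lower. In the other lists 2 ERAD genes, 6 translocation genes, 6 transport genes, 4 outputs of PERK and ATF4 and 3 related sensors were higher there, and 3 ERAD genes, 1 transport gene and 1 related sensor were lower. After infarction 4 folding enzymes, 1 N-glycosylation gene, 1 output of PERK and ATF4 and 1 related sensor were higher, and 1 N-glycosylation gene, 1 ERAD gene and 1 transport gene were lower. The counts of transport genes, ERAD genes and related sensors after ischemia-reperfusion, of related sensors at 8 weeks, and of most lists after infarction lie near those shares. No gene of the 7 lists was called at 3 weeks or in heterozygous hearts.

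Markers of other cell types were called in the same groups. Over all genes 22.3% were higher and 21.4% lower at 5 weeks, 30.8% and 29.0% at 8 weeks, 16.9% and 14.1% after ischemia-reperfusion and 6.62% and 4.77% after infarction, and some counts, such as 2 of 6 endothelial markers after ischemia-reperfusion, lie closer to these shares than others. Of 8 macrophage markers 7 were higher and 1 was lower at 5 weeks, 8 were higher at 8 weeks, 7 after ischemia-reperfusion and 2 after infarction. Their sum was 1805 to 2348 CPM in homozygous and 426 to 462 CPM in wild type ventricles at 5 weeks, 1340 to 2627 CPM in homozygous and 393 to 504 CPM in wild type ventricles at 8 weeks, and 1144 to 1890 CPM after ischemia-reperfusion and 440.2 to 666 CPM after infarction, against 265 to 458 CPM in shams. Of 8 fibroblast markers 8 were higher at 5 weeks and at 8 weeks and 6 after each injury. Their sum was 3814 to 5211 CPM in homozygous and 1405 to 1468 CPM in wild type ventricles at 5 weeks, 4829 to 8966 CPM in homozygous and 1149 to 1248 CPM in wild type ventricles at 8 weeks, and 2933 to 6016 CPM after ischemia-reperfusion and 1823 to 3310 CPM after infarction, against 968 to 1448 CPM in shams. Of 8 cardiomyocyte markers 6 were lower at 5 weeks, 5 at 8 weeks, 7 after ischemia-reperfusion and 1 after infarction. All 6 endothelial markers and all 6 of smooth muscle and pericytes were lower at 5 weeks; at 8 weeks 4 and 2 were lower and 1 of each was higher. After ischemia-reperfusion 2 endothelial markers were lower, and 2 of smooth muscle were higher and 1 lower; after infarction 0 endothelial markers were called, and 1 of smooth muscle was higher and 1 lower. Of 3 tested T cell markers 3 were higher at 5 weeks and 1 at 8 weeks, and of 1 tested after surgery 1 was higher after ischemia-reperfusion and 0 after infarction. Of the markers of B and plasma cells, which are rich in these chaperones, 0 of 5 tested were called at 5 weeks, 2 were higher and 2 lower of 7 at 8 weeks, and 0 and 3 of 8 were higher after ischemia-reperfusion and infarction. Their sum was 25.5 to 34.4 CPM in homozygous and 23.5 to 25.1 CPM in wild type ventricles at 5 weeks, 12.0 to 46.3 CPM in homozygous and 14.9 to 17.1 CPM in wild type ventricles at 8 weeks, 14.5 to 35.1 CPM after ischemia-reperfusion and 32.3 to 241 CPM after infarction, against 13.0 to 23.1 CPM in shams. No marker in the table stood at 0 in a whole group. No marker was called at 3 weeks or in heterozygous hearts. The part of these cells in the level of the 34 genes was not tested.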

How the data were processed

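RNA of mouse left ventricles was extracted with Trizol and made into 39 libraries by a TruSeq stranded mRNA protocol, per the labels' protocols. Reads were mapped to mm10 with STAR 2.7.3a and counted per gene with featureCounts of Subread 2.0.0, per the submitters' processing notes; neither strand setting nor annotation release is stated there. The deposited table holds raw whole-number counts of 38293 gene IDs. GENCODE vM21 named 36345 of them, and the unnamed hold 0.133% of counts.

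The 34 genes and all gene and marker lists were chosen with earlier results of these data known. Counts were filtered with filterByExpr, scaled with TMM and tested with edgeR 4.0.16 (quasi-likelihood, R 4.3.3) over all genes, and p-values were adjusted by Benjamini-Hochberg (threshold 0.05). Homozygous and wild type hearts were fitted together at 3 and at 5 weeks, the 3 genotypes together at 8 weeks, the surgery groups together with shams pooled, and interactions and wild type ages over all 39 libraries. The SE of a log2 fold change is its size over the square root of F. CPM is a count over the library's total, so CPM ratios can differ from TMM folds. Intervals on count ratios are exact and cover counting error only. No 2 libraries of a group held identical counts, and all 53 replicate pairs differed by more than sampling noise (chi-square per gene 4.03 to 97.4).

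Values per sample are given for the 2 genes of each role with the largest change at 8 weeks, for the sensors and Xbp1, and for genes called against the direction of most; others are said to be chosen after their values were seen. From each companion list up to 2 genes per direction with the smallest p at 8 weeks are named. Same-numbered replicates were not treated as pairs. The other settings tried were DESeq2 1.42.0, limma 3.58.1 (voom with quality weights), RLE or library size scaling, other filters, robust dispersion, all libraries in 1 fit, a replicate block, age-matched shams and leaving out each library.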

Additional observations from a re-analysis of the deposited data

Results flagged for a closer look

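Each gene was tested for a single stray value in each group of 4 libraries, at most 306 tests. Groups where the gene's summed counts were under 20 were left out, which held for Derl3 in several groups. In 15 tests 1 library stood far from the other 3, about the 1 in 20 that chance gives. In homozygous hearts these were Dnajc3 at 48.5 CPM (3 weeks, replicate 1), Sel1l at 68.9 CPM (3 weeks, replicate 1), Atf6 at 137 CPM (3 weeks, replicate 2), Pdia6 at 235 CPM and Dnajc3 at 113 CPM (both 5 weeks, replicate 3). In heterozygous hearts they were P4hb at 348 CPM and Derl2 at 26.02 CPM, both in replicate 2. After infarction they were Hsp90b1 at 368 CPM (replicate 2) and Sec61b at 5.29 CPM (replicate 4). In wild type hearts they were Dnajc3 at 39.3 CPM (3 weeks, replicate 1), Sec61a1 at 72.3 CPM and Kdelr3 at 17.4 CPM (both 3 weeks, replicate 2), Kdelr3 at 15.3 CPM (5 weeks, replicate 2) and Edem1 at 19.6 CPM (5 weeks, replicate 4). Among the pooled shams Ern1 stood at 23.9 CPM in replicate 2 at 12 weeks.

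Effects differed between contrasts by interaction tests over all 39 libraries. The difference between homozygous and wild type hearts was larger at 5 than at 3 weeks for 28 genes, beside 11.1% of all genes. The log2 differences were 5.65 for Derl3 and 2.66 for Sdf2l1. Between 8 and 5 weeks it differed for 7 genes. It was larger by 0.73 for Ube2g2 and 0.41 for Ube2j1, beside 14.4% of all genes. It changed by -0.59 for Calr, -0.57 for Canx, -0.63 for Pdia6, -1.23 for Hyou1 and -0.995 for Manf, beside 13.8% of all genes. The counts in these 2 directions lie below or near those shares. The difference from wild type was larger at 8 weeks than the effect of infarction for 27 genes, beside 19.6% of all genes, by 6.82 for Derl3 and 1.75 for Sdf2l1. It was larger than the effect of ischemia-reperfusion for 12 genes, beside 16.6% of all genes, by 5.84 for Derl3 and 1.27 for Dnajb9.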

How the results depend on the processing

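No gene called in the main test or in an alternative changed direction between them. For 62 pairs of a gene and a comparison, called in neither and with log2 fold changes of at most 0.26 in size, the sign turned in at least 1 alternative. All 30 calls at 5 weeks and all 30 of homozygous against heterozygous hearts held in every alternative, as did 25 of 30 at 8 weeks, 13 of 18 after ischemia-reperfusion, 2 of 3 after infarction, 24 of 28 for 5 against 3 weeks, 5 of 7 for 8 against 5 weeks, 21 of 27 against infarction, 8 of 12 against ischemia-reperfusion and 1 of 5 for wild type ages. Leaving out 1 library gave 30 to 31 called genes at 5 weeks, 26 to 31 at 8 weeks, 30 to 32 against heterozygous hearts, 16 to 22 after ischemia-reperfusion, 2 to 5 after infarction (5 without infarction replicate 4), 25 to 29 for 5 against 3 weeks, 6 to 12 for 8 against 5 weeks, 22 to 30 against infarction, 11 to 15 against ischemia-reperfusion and 1 to 4 for wild type ages. With limma-voom the count was 14 for 8 against 5 weeks (5 larger, 9 smaller) and 12 for wild type ages. With library size scaling it was 2 for wild type ages. The cause was not tested. Scaling by library size moved the median of all genes by 0.21 at 5 weeks, 0.19 at 8 weeks, 0.21 after ischemia-reperfusion and 0.11 after infarction. The replicate numbers did not pair the libraries (correlations of deviations -0.213 to 0.209); with the number as a block 28 genes were called at 8 weeks. Over all genes, DESeq2 called 118 at 3 weeks where edgeR called 0. Shallow counts limit Derl3 outside homozygous hearts of 5 and 8 weeks, and 3 wild type hearts limit the tests at 8 weeks.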
